A study of Rattus norvegicus with 12 samples.

Results

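The transcripts described here are those of 8 genes that act when a reticulocyte loses its mitochondria and other organelles. They are *Bnip3l*, *Fundc1*, *Ulk1*, *Map1lc3b*, *Gabarapl2*, *Alox15*, *Trim58* and *Foxo3*, and all 8 were found among the 29539 genes of the expression table. They were chosen by their symbols, with earlier results of these data known. The libraries were made from red blood cells (RBCs) of wild-type male Wistar rats aged 11 weeks, whose blood was mixed with CPDA, a citrate and adenine solution that keeps blood, and was held at 4 °C. The RBCs were purified by washing after no storage (Cont, 0 days), after 10 days (10 d) or after 20 days (20 d), and rRNA-depleted RNA of 4 libraries per condition was sequenced, 12 in all. The study took aliquots of the same rats for the 3 conditions, but which rat stands behind a library is not stated. The p-values measure the spread between libraries only. Washing removes plasma and the buffy coat but does not sort cells, so that a library can hold RNA of reticulocytes, of mature RBCs and of remaining leukocytes and platelets, and fewer cells of a type and less RNA per cell cannot be told apart. Since RBCs were purified on the day their storage ended, storage and purification day cannot be told apart.

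A reticulocyte leaves the bone marrow without a nucleus but with mitochondria, ribosomes and remnants of the endomembrane system, which it clears in the blood. Mitochondria are cleared by mitophagy: a receptor in the outer mitochondrial membrane binds lipid-bound proteins of the ATG8 family on a growing membrane, which closes around the organelle and fuses with a lysosome. BNIP3L, also named NIX, is the receptor known from reticulocytes, and mice without it keep mitochondria in their RBCs. After the nucleus is lost no new transcript is made, so that the mRNA of an RBC is a remainder of what was made before.

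The red cell label was checked first. All 8 red cell marker genes in the table had counts, and their median share of the counts, most of it globin, was 81.6% in Cont, 81.5% at 10 d and 81.7% at 20 d. Between 83.8% and 88.1% of all counts per library came from globin and 7SL genes. The libraries held 65735930 to 85996710 counts. Genes with a count numbered 13949 to 14301 in Cont, 13567 to 14271 at 10 d and 12619 to 12897 at 20 d, so that every 20 d library had fewer. The study saw a weaker band of the large rRNA at 20 d in pooled RNA, and judged that no condition had severe degradation. Counts per 1000000 (CPM) are scaled by TMM, the trimmed mean of M-values, which sets the middle of all genes equal between libraries. Its factors were 1.03 to 1.30 in Cont, with replicate 1 lowest and the others at 1.20 or more, 0.859 to 0.985 at 10 d and 0.864 to 0.949 at 20 d. Taking library size alone in place of TMM shifts the median gene by −0.36 (log2) at 10 d against Cont, by −0.39 at 20 d against Cont and by −0.03 at 20 d against 10 d, and both scalings are given for each of the 8 genes. Under TMM all 8 red cell markers were higher at 10 d (median log2 fold change 0.44) and 7 at 20 d (0.53), and by library size alone 2 were higher at 10 d (0.09), and 2 were higher and 1 lower at 20 d (0.14). The summed leukocyte marker lists were lower at 20 d than in Cont. At 10 d, 3 of 7 tested lymphocyte markers were lower and 0 were higher (median log2 fold change −0.10). The 8 neutrophil markers summed to 41.6 to 65.4 CPM in Cont, 8.37 to 25.7 at 10 d and 2.23 to 4.75 at 20 d, while the 6 platelet markers summed to 0.187 to 0.623 in Cont, 2.17 to 2.70 at 10 d and 0.310 to 0.510 at 20 d.

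The 8 genes spanned more than 3 orders of magnitude in level per length, and *Alox15*, *Bnip3l* and *Gabarapl2* stood at the top. Levels per length are given as transcripts per 1000000 (TPM). In Cont, *Alox15* had 865 ± 166 TPM (SD, n = 4) and was the gene of rank 26 in the table. *Bnip3l* had 560 ± 32.9 TPM and rank 41, and *Gabarapl2* had 493 ± 114 TPM and rank 44. These 3 genes were among the most abundant of the table. *Map1lc3b* followed with 71.2 ± 3.51 TPM. *Foxo3* had 8.83 ± 2.02 TPM and *Trim58* 8.02 ± 1.17 TPM. *Fundc1* was lower at 2.30 ± 0.331 TPM, and *Ulk1* was lowest at 0.414 ± 0.142 TPM and rank 5194. Within Cont the libraries of *Bnip3l* and *Gabarapl2* overlapped, as did those of *Foxo3* and *Trim58*, and all other neighbours in the order were apart. In 10 d and 20 d *Bnip3l* and *Gabarapl2* were apart, and *Foxo3* and *Trim58* still overlapped, with *Trim58* first at 20 d (6.58 ± 0.526 against 6.33 ± 0.569 TPM). Over the 12 libraries the TPM of *Bnip3l* was the steadiest, with a coefficient of variation of 3.81%, and that of *Ulk1* varied most, with 54.6%. The 8 genes together took 0.277% to 0.347% of the counts of a Cont library, 0.313% to 0.329% at 10 d and 0.310% to 0.327% at 20 d.

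**Figure D1:**
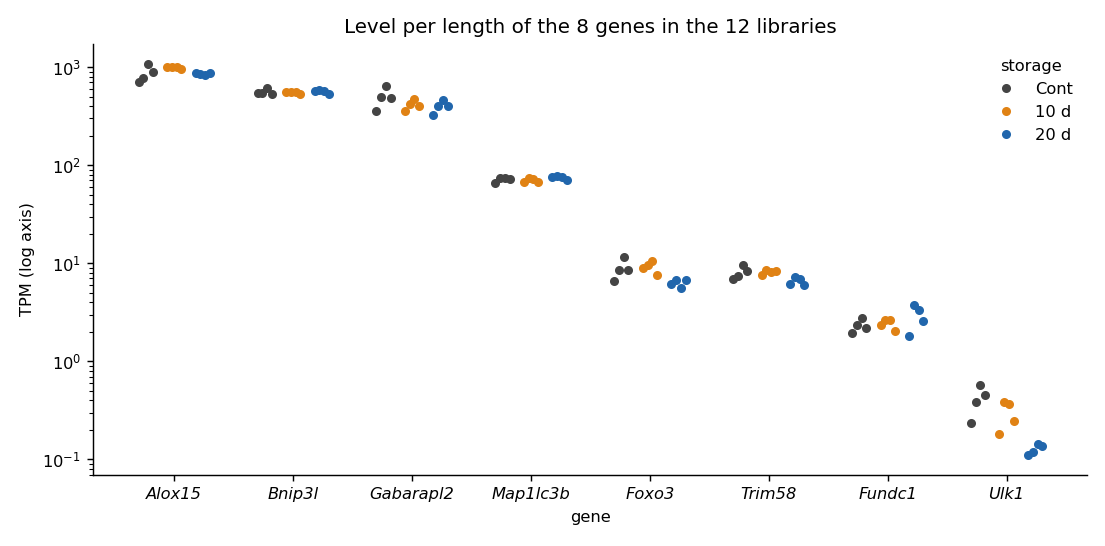
TPM (log axis) of the 8 genes in each of the 12 libraries, with 1 point per library and the storage conditions side by side. The genes run from *Alox15* (865 TPM on average in Cont) down to *Ulk1* (0.414 TPM), whose 4 libraries of 20 d lie below all others.

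Promoters are shown for the members whose sequence held a motif of erythroid factors, since these transcripts were made before the nucleus was lost. RefSeq promoters of build GRCr8 were matched for 4 of the 8 genes, *Trim58*, *Ulk1*, *Gabarapl2* and *Map1lc3b*, and the 250 bases before each start were searched on both strands for 4 motifs. Of these AGATAA is bound by GATA factors. Krüppel-like factors bind CCACCC, known as a CACCC box. FoxO factors bind GTAAACA. The CLEAR E-box of lysosomal genes is TCACGTGA. The GATA motif was found in *Trim58*, 97 to 92 bases before the start, and in 10.3% of the 33469 rat promoters of that length. The CACCC box was found in *Map1lc3b*, 37 to 32 bases before the start, and in 26.1% of all. None of the 4 motifs was found in these windows of *Ulk1* and *Gabarapl2*. The FoxO motif was in 3.21% and the CLEAR E-box in 0.657% of all promoters, and a match of letters does not show that a factor binds. The promoters of *Trim58* (chr10:43523154-43523403, plus strand) and *Map1lc3b* (chr19:66574345-66574594, plus strand) read as follows, with the motif in capitals.
Trim58: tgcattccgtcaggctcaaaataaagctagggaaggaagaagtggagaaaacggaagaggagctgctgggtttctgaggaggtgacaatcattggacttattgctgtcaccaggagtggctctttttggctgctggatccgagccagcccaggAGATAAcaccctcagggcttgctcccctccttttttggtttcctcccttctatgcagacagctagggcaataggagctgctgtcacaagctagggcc
Map1lc3b: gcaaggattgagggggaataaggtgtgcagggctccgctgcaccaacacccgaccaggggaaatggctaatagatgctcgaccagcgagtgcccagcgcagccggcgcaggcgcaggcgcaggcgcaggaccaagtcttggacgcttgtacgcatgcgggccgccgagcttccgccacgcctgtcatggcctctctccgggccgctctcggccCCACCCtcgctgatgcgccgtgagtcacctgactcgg

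Against Cont, 5 of the 8 genes were higher at 10 d and 4 were higher at 20 d, while *Ulk1* was lower at 20 d, and most of the rises depend on how libraries are scaled. Pairs of conditions were compared in edgeR by the quasi-likelihood F-test, with p-values adjusted after Benjamini and Hochberg over the 8382 genes that could be tested and a threshold of 0.05, and all 8 genes were among them. In 10 d, *Alox15*, *Bnip3l*, *Foxo3*, *Map1lc3b* and *Trim58* were higher, where 7.86% of all tested genes were. No member was lower at 10 d by edgeR, at an unadjusted p under 0.05 (0 members) or by DESeq2 (0 members), where 5.68% of all genes were lower. In 20 d against Cont, *Alox15*, *Bnip3l*, *Fundc1* and *Map1lc3b* were higher (12.8% of all genes) and *Ulk1* was lower (21.1% of all genes). From 10 d to 20 d, *Foxo3* and *Ulk1* fell (12.6% of all genes), and 0 members rose by edgeR, 1 (*Map1lc3b*) at an unadjusted p under 0.05 and 1 by DESeq2 (3.38% of all genes rose by edgeR). The median log2 fold change of the 8 genes was 0.40 at 10 d against Cont, 0.36 at 20 d against Cont and −0.02 at 20 d against 10 d, and that of all genes was −0.00, −0.01 and −0.08. The red cell markers, with medians of 0.44 and 0.53 against Cont, rose in the same comparisons, and no difference between them and the 8 genes was tested.

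Scaling by library size alone changed the calls against Cont. No member was then higher at 10 d by edgeR (0 members, or 1 at an unadjusted p under 0.05, *Alox15*), where 1.17% of the tested genes rose and 22.7% fell. In 20 d against Cont only *Map1lc3b* among the 8 was higher, where 1.18% of all genes were, and *Foxo3* and *Ulk1* were lower, where 34.7% were. The falls of *Foxo3* and *Ulk1* from 10 d to 20 d were called with this scaling too (10.8% of all genes lower, 0.811% higher). Under the stricter adjusted p of 0.0001 over the 3 conditions, which the study used, *Alox15* and *Map1lc3b* were called with TMM (6.13% of all genes). With library size alone 0 members were, and the lowest adjusted p was 0.00232, of *Ulk1*.

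**Figure D2:**
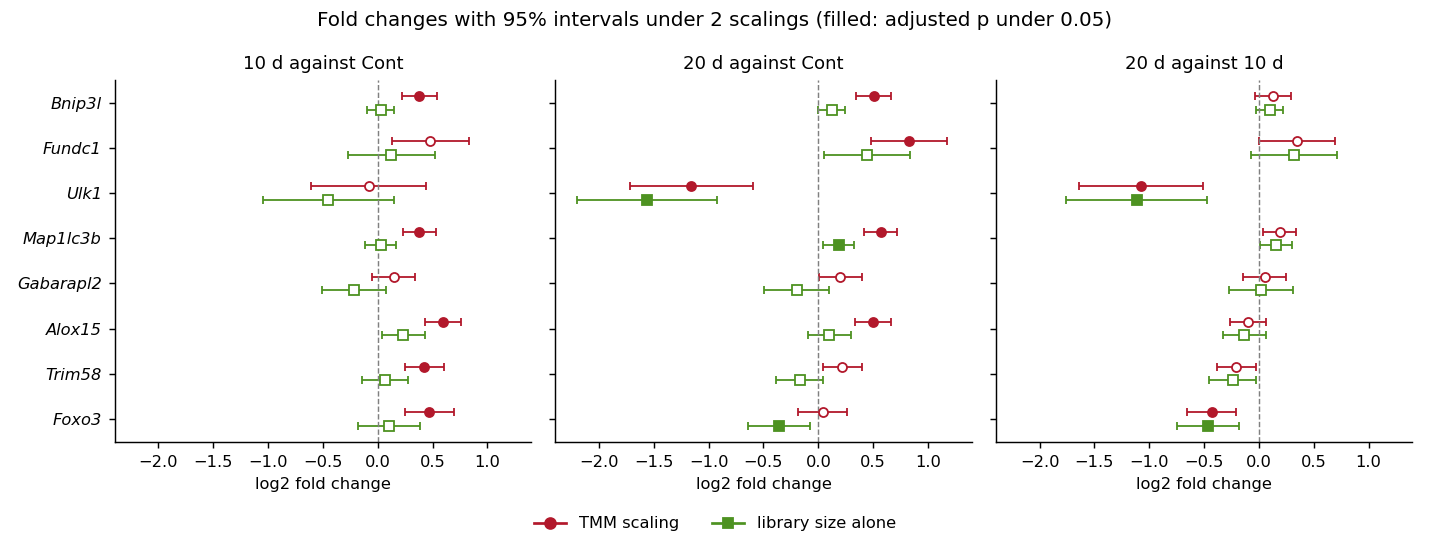
Log2 fold changes of the 8 genes with 95% intervals in the 3 pairs of conditions (n = 4 libraries each), under TMM scaling (circles) and library size alone (squares), filled where the adjusted p was under 0.05. Against Cont the squares lie to the left of the circles, and at 20 d against 10 d the symbols nearly coincide, with *Ulk1* (−1.08) and *Foxo3* (−0.43) filled under both.

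Transcripts of the mitophagy receptor *Bnip3l* were higher in stored than in fresh RBCs under TMM scaling and nearly level in TPM. *Bnip3l* (ENSRNOG00000009820, mRatBN7.2 chromosome 15, 41174594 to 41197803, minus strand) had 1475, 1209, 1225 and 1207 CPM in Cont, 1799, 1664, 1574 and 1607 CPM at 10 d, and 1891, 1868, 1747 and 1758 CPM at 20 d. Every stored library was above every Cont library, and 10 d and 20 d overlapped. The rise of *Bnip3l* on the log2 scale was 0.38 at 10 d (SE 0.08, 95% interval 0.22 to 0.54, adjusted p = 0.00245) and 0.51 at 20 d (0.35 to 0.67, adjusted p = 5.79e-05), which is 1.42-fold at 20 d. Neither passed by library size alone, with 0.03 (adjusted p = 0.77) and 0.12 (adjusted p = 0.106). In that scaling 10 d overlapped Cont, and every 20 d library was still above every Cont library. In TPM, *Bnip3l* had 560 ± 32.9 in Cont, 556 ± 11.4 at 10 d and 565 ± 20.1 at 20 d.

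*Fundc1*, which encodes a mitophagy receptor known from hypoxic cells, was higher at 20 d than in Cont, with a wide spread. *Fundc1* (ENSRNOG00000003470, chromosome X, 5083617 to 5100284, plus strand) had 1.71, 1.66, 1.79 and 1.59 CPM in Cont, 2.46, 2.54, 2.43 and 2.0 CPM at 10 d, and 1.97, 3.93, 3.32 and 2.76 CPM at 20 d. Every stored library was above every Cont library. Replicate 1 of 20 d, with 131 counts, was low in its group, and the other libraries of 20 d had 195 to 262 counts. At 20 d *Fundc1* had a log2 fold change of 0.83 (SE 0.17, 95% interval 0.48 to 1.17, adjusted p = 0.000806), and at 10 d of 0.48 (0.13 to 0.83, adjusted p = 0.0654). At 10 d the value passed without replicate 1 of 20 d (adjusted p = 0.0193) or replicate 2 of 20 d (adjusted p = 0.0414), which enter through the shared spread. It also passed with the replicate number as a block in the fit (adjusted p = 0.0244). Without replicate 1 of 20 d, the value at 20 d against 10 d also passed (0.51, adjusted p = 0.0234, against 0.35 and 0.172 with all libraries). Scaled by library size alone, *Fundc1* had 0.44 at 20 d (adjusted p = 0.0734), and both stored conditions overlapped Cont.

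Of 18 other genes of mitophagy in the table, 15 could be tested. In 10 d 7 rose, and at 20 d 10 rose, with a median log2 fold change of 0.39 and 0.44. No gene of this list was lower by edgeR at either time (0 at 10 d and 1 at 20 d at an unadjusted p under 0.05, and 0 and 1 by DESeq2). The same counts by library size alone were 2 higher at 10 d and 1 lower at 20 d. *Tax1bp1*, which encodes a cargo receptor that binds ubiquitin and ATG8 proteins, had log2 fold changes of 0.78 at 10 d (SE 0.08, adjusted p = 8.44e-06) and 0.69 at 20 d (adjusted p = 4.23e-06). *Pink1*, which encodes the kinase that marks damaged mitochondria, had 0.56 at 10 d (adjusted p = 4.1e-05) and 0.48 at 20 d (adjusted p = 3.87e-05). By library size alone these were 0.42 and 0.30 for *Tax1bp1*, of which the first passed (adjusted p = 0.0156), and 0.21 and 0.09 for *Pink1*. *Bnip3*, the closest relative of *Bnip3l*, had 16 counts in all 12 libraries together and was not tested.

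*Ulk1*, which encodes the kinase that starts autophagy, fell at 20 d under both scalings, against Cont and against 10 d. *Ulk1* (ENSRNOG00000037505, chromosome 12, 45851710 to 45877966, plus strand) had 48, 73, 85 and 83 counts in Cont, 34, 70, 62 and 46 counts at 10 d, and 21, 22, 25 and 27 counts at 20 d. All 4 libraries of 20 d were below every other library, also in CPM, and Cont and 10 d overlapped. In CPM, *Ulk1* had 0.793 ± 0.197 in Cont, 0.747 ± 0.220 at 10 d and 0.354 ± 0.0365 at 20 d (SD, n = 4). The log2 fold change was −1.16 at 20 d against Cont (SE 0.27, 95% interval −1.72 to −0.60, adjusted p = 0.00247) and −1.08 at 20 d against 10 d (−1.64 to −0.51, adjusted p = 0.011). In 10 d against Cont it was −0.08 (−0.61 to 0.44, adjusted p = 0.895), an interval that holds changes in either direction. By library size alone the falls were larger, −1.56 (adjusted p = 0.000692) and −1.12 (adjusted p = 0.0249), and the value at 10 d was −0.45 (adjusted p = 0.258). The level at 20 d thus rests on 21 to 27 counts per library.

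Leukocytes also express *Ulk1*, and their marker lists were lower at 20 d too. *Ptprc*, which encodes CD45 of all leukocytes, had 9.91 to 21.6 CPM in Cont, 7.08 to 10.5 CPM at 10 d and 1.44 to 3.35 CPM at 20 d. Its log2 fold change was −0.88 at 10 d and −2.81 at 20 d against Cont. The 6 monocyte markers summed to 38.6 to 69.2 CPM in Cont, 3.59 to 17.6 at 10 d and 1.35 to 2.88 at 20 d, and the 8 lymphocyte markers to 6.29 to 7.12, 4.64 to 6.32 and 0.135 to 0.330 CPM. Of these lists *Ms4a7* was at 0 in all conditions, *Cd14* was at 0 at 10 d and *Cd3d* was at 0 at 20 d. Lymphocyte markers differed among themselves at 10 d. In Cont, 10 d and 20 d *Cd3e* had 180, 12 and 2 counts, *Cd79a* 220, 265 and 8, and *Cd79b* 160, 186 and 12. The part of leukocytes in the fall of *Ulk1* was not tested. *Ulk2*, the paralog of *Ulk1*, which was named after its values were seen, had log2 fold changes of 0.28 at 10 d (adjusted p = 0.315) and 0.24 at 20 d (adjusted p = 0.281).

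Of 19 other genes of autophagy initiation, all in the table, 17 could be tested. In 10 d 5 rose and 1 fell, at 20 d 6 rose and 1 fell, and from 10 d to 20 d 2 rose and 1 fell, with medians of 0.25, 0.04 and −0.05. *Rb1cc1*, which encodes FIP200 of the ULK1 complex, had 0.55 at 10 d (SE 0.07, adjusted p = 8.04e-05) and 0.54 at 20 d (adjusted p = 2.39e-05). *Wdr45*, which encodes the lipid-binding protein WIPI4, had 0.63 at 10 d (adjusted p = 6.77e-05) and 0.69 at 20 d (adjusted p = 6.99e-06). None of these 4 values passed with library size alone (0.20 and 0.16 for *Rb1cc1*, 0.28 and 0.30 for *Wdr45*). In that scaling 3 genes of the list were lower at 10 d and 4 at 20 d.

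**Figure D3:**
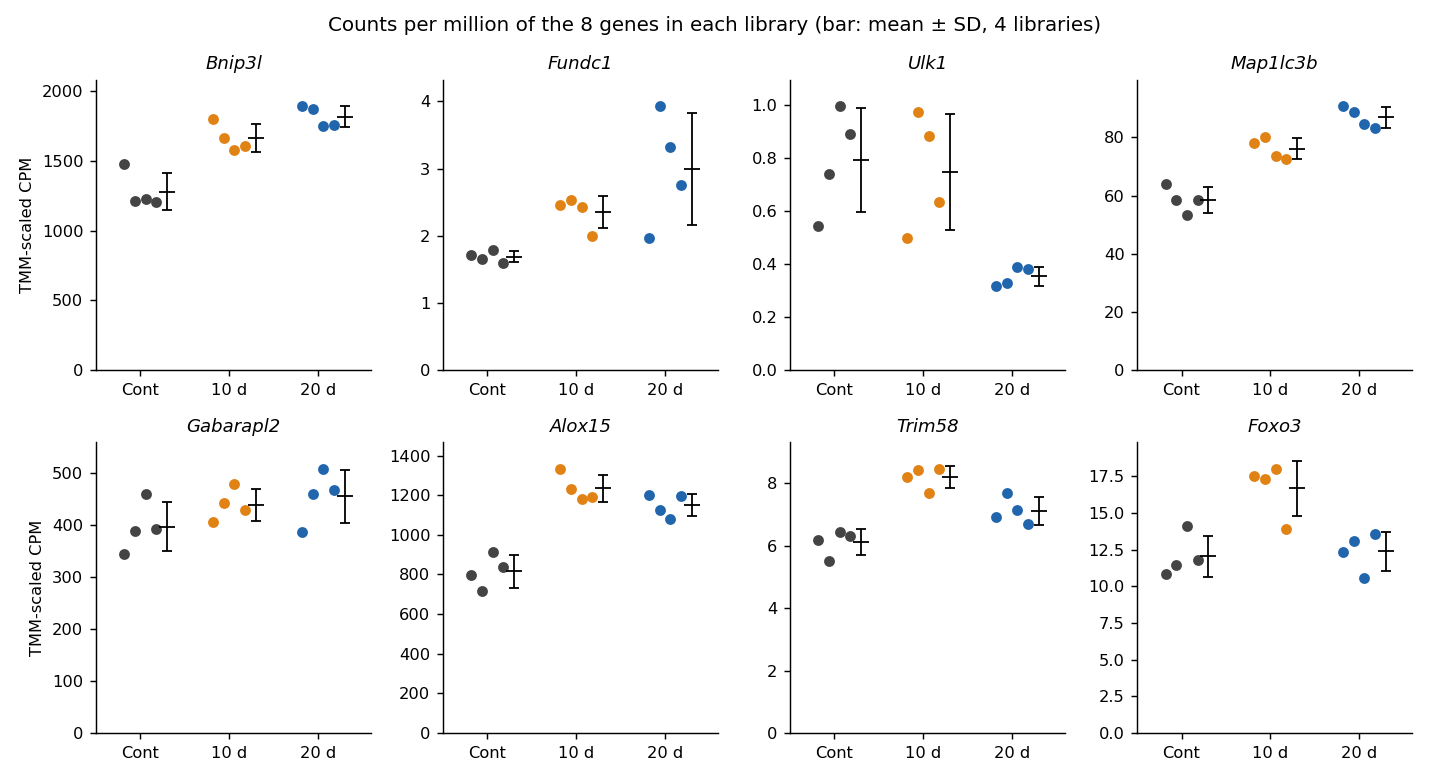
TMM-scaled CPM of the 8 genes in each library (points, 4 per storage condition, axes from 0), with the mean and SD as bars beside them. In this scaling *Bnip3l*, *Fundc1*, *Map1lc3b*, *Alox15* and *Trim58* are higher in every stored library than in every Cont library. The share of all genes that part in this way was not counted. *Ulk1* is lowest at 20 d (0.354 CPM on average), and *Foxo3* and *Trim58* are highest at 10 d on average. With library size alone no rise against Cont passed the test but that of *Map1lc3b* at 20 d. In that scaling *Bnip3l* and *Map1lc3b* at 20 d still lay above every Cont library, and the other pairs of these genes with Cont overlapped.

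*Map1lc3b* and *Gabarapl2* encode ATG8 proteins, which are bound to lipid on the autophagic membrane and hold the receptors. *Map1lc3b* rose with storage under TMM scaling. *Map1lc3b* (ENSRNOG00000017905, chromosome 19, 49665791 to 49677690, plus strand) had 64.1, 58.6, 53.2 and 58.3 CPM in Cont, 78.2, 80.1, 73.7 and 72.4 CPM at 10 d, and 90.7, 88.9, 84.7 and 83.2 CPM at 20 d. No library overlapped between any pair of conditions in these CPM. In TPM all pairs overlapped (71.2 ± 3.51 in Cont, 70.7 ± 3.79 at 10 d and 74.9 ± 3.00 at 20 d). *Map1lc3b* rose by 0.38 on the log2 scale at 10 d (SE 0.07, 95% interval 0.23 to 0.53, adjusted p = 0.00158) and by 0.57 at 20 d (0.42 to 0.72, adjusted p = 1.05e-05). *Map1lc3b* was the member whose rise at 20 d also passed with library size alone (0.19, 95% interval 0.04 to 0.33, adjusted p = 0.0429). At 10 d library size alone gave 0.03 (adjusted p = 0.798). From 10 d to 20 d the value was 0.19 (0.04 to 0.34, adjusted p = 0.0795), and 0.16 by library size alone (adjusted p = 0.148). With TMM the change from 10 d to 20 d passed when any 1 of the Cont libraries was left out (without replicate 1 adjusted p = 0.02, replicate 2 adjusted p = 0.042, replicate 3 adjusted p = 0.0279 and replicate 4 adjusted p = 0.0408). It also passed with DESeq2 (0.24, adjusted p = 0.00355), with DESeq2 size factors (adjusted p = 0.0212) and with the replicate number as a block in the fit (adjusted p = 0.0155).

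*Gabarapl2*, which encodes GATE-16, had a log2 fold change that no scaling called with libraries taken as unpaired. *Gabarapl2* (ENSRNOG00000019425, chromosome 19, 39910534 to 39924628, plus strand) had 344, 388, 458 and 393 CPM in Cont, 405, 442, 478 and 429 CPM at 10 d, and 385, 459, 507 and 466 CPM at 20 d. The 3 conditions overlapped, while within each replicate number the stored libraries were above that of Cont. Its log2 fold change was 0.15 at 10 d (95% interval −0.05 to 0.34, adjusted p = 0.372) and 0.20 at 20 d (0.00 to 0.40, adjusted p = 0.113), and the direction turned under scaling by library size alone, to −0.22 and −0.20 (adjusted p = 0.263 and 0.28). At 20 d the value passed without replicate 3 of Cont (0.31, adjusted p = 0.0105) or replicate 1 of 20 d (0.28, adjusted p = 0.027). With the replicate number as a block in the fit, the values passed at 10 d (0.15, adjusted p = 0.0426) and at 20 d (0.20, adjusted p = 0.00363). The TPM of *Gabarapl2* was 6.90 ± 1.35 times that of *Map1lc3b* in Cont (SD, n = 4), 5.82 ± 0.569 times at 10 d and 5.30 ± 0.756 times at 20 d, and the ranges overlapped. The library kit does not mark strand. The antisense neighbours *Adat1* of *Gabarapl2* and *Zcchc14* of *Map1lc3b* had at most 10 and 19 counts in a library, and reads where the genes overlap cannot be told apart.

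The other 3 ATG8 genes differed among themselves. *Gabarap* had 115 ± 4.52 CPM in Cont, 147 ± 9.42 at 10 d and 151 ± 10.1 at 20 d, with log2 fold changes of 0.36 (SE 0.07, adjusted p = 0.00223) and 0.40 (adjusted p = 0.000303), which were both 0.01 with library size alone. *Gabarapl1* had 0.33 at 10 d (adjusted p = 0.196) and 0.52 at 20 d (adjusted p = 0.0159), while library size alone gave −0.00 and 0.15. *Map1lc3a* had 0.13 (adjusted p = 0.49) and −0.02 (adjusted p = 0.92), and with library size alone it was lower at 20 d (−0.40, adjusted p = 0.00339). Of the 12 tested genes of ATG8 proteins and their conjugation, these 3 included, 2 rose at 10 d and 4 at 20 d, with medians of 0.15 and 0.08. The genes called at 10 d were *Gabarap* and *Atg4d*, a protease that processes ATG8 proteins (0.87, SE 0.12, adjusted p = 0.000137), and *Atg4d* was called with library size alone too (0.51, adjusted p = 0.0273). *Atg3*, which encodes the enzyme that transfers ATG8 proteins to lipid, rose at 20 d (0.52, SE 0.11, adjusted p = 0.00114), with 0.14 by library size alone (adjusted p = 0.455). With that scaling 1 gene of the list was higher and 1 lower at 10 d, and 3 were lower at 20 d.

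Genes of the lysosome and of its fusion moved in both directions, 9 of them tested. In 10 d and at 20 d 2 rose and 1 fell, with medians of −0.11 and 0.17. By library size alone 2 were higher and 1 lower at 10 d, and 1 was higher and 4 were lower at 20 d, with medians of −0.45 and −0.19. *Ctsd*, which encodes the protease cathepsin D, had log2 fold changes of 0.65 at 10 d (SE 0.06, adjusted p = 6.28e-06) and 0.79 at 20 d (adjusted p = 1.29e-07), and both passed with library size alone (0.30 and 0.40). *Ctsb*, which encodes cathepsin B, had 0.63 at 10 d (adjusted p = 4.69e-05). From 10 d to 20 d *Ctsb* fell by 0.41 on the log2 scale (adjusted p = 0.00188). *Rab7a*, which encodes the small GTPase that brings autophagic membranes to lysosomes, was lower at both times (−0.94 at 10 d, adjusted p = 0.000323, and −1.14 at 20 d, adjusted p = 1.64e-05), with 2.03 ± 0.190 CPM in Cont, 1.05 ± 0.166 at 10 d and 0.918 ± 0.0364 at 20 d. Its falls were larger with library size alone (−1.29 and −1.53).

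*Alox15* was the member with the highest level and the largest rise at 10 d. It encodes the reticulocyte 15-lipoxygenase, which oxidises lipids in organelle membranes. *Alox15* (ENSRNOG00000019183, chromosome 10, 55060412 to 55068874, minus strand) had 795, 716, 915 and 836 CPM in Cont, 1333, 1231, 1182 and 1192 CPM at 10 d, and 1199, 1124, 1082 and 1197 CPM at 20 d. Every stored library was above every Cont library, and 10 d and 20 d overlapped. The log2 fold change was 0.60 at 10 d (SE 0.08, 95% interval 0.44 to 0.76, adjusted p = 5.98e-05) and 0.50 at 20 d (0.33 to 0.66, adjusted p = 7.97e-05), and between 20 d and 10 d it was −0.10 (−0.26 to 0.06, adjusted p = 0.42). Against Cont, library size alone gave 0.23 (adjusted p = 0.0771) and 0.10 (adjusted p = 0.416), and both stored conditions then overlapped Cont. When globin and 7SL genes were left out of the library size, *Alox15* was the member that was still called at 10 d (0.29, adjusted p = 0.00842) and it was called at 20 d (0.29, adjusted p = 0.00461).

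Eosinophils and macrophages also make *Alox15*, so their markers were set beside it. The other 7 eosinophil markers summed to 3.31 to 6.72 CPM in Cont, 1.14 to 3.65 at 10 d and 0.541 to 1.49 at 20 d. Over the 4 libraries of Cont, 10 d and 20 d, *Siglec5* had 1255, 436 and 141 counts, *Ccr3* 468, 227 and 66, *Il5ra* 40, 17 and 14, and *Prg2* 18, 9 and 6. *Epx*, the eosinophil peroxidase, had 2, 0 and 2 counts, *Prg3* 1, 0 and 0, and *Ear1* 0 in all. Of the monocyte and macrophage markers, *Lyz2* had 18942, 3520 and 567 counts, *Csf1r* 283, 54 and 23, *Adgre1* 67, 16 and 18, *Cd68* 4, 5 and 3 and *Cd14* 2, 0 and 1, and *Ms4a7* was at 0. The summed levels of both lists were thus lower in the stored conditions, and the part of these cells in the counts of *Alox15* was not tested.

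Other lipoxygenase genes had few counts, and of 8 genes listed with their partners 4 could be tested, of which 1 rose and 2 fell at 10 d, and 2 rose and 2 fell at 20 d. In the other scaling 1 rose and 2 fell at each time. *Alox5*, the leukocyte 5-lipoxygenase, had 122 counts in Cont, 35 at 10 d and 23 at 20 d, and fell at 10 d (−1.41, SE 0.46, adjusted p = 0.049) and at 20 d (−1.94, adjusted p = 0.00451). *Alox5ap*, its activating protein, had 463, 82 and 26 counts and had log2 fold changes of −2.12 at 10 d (adjusted p = 0.00339) and −3.68 at 20 d (adjusted p = 2.86e-05). *Gpx4*, which encodes the peroxidase that reduces lipid hydroperoxides, moved the other way. *Gpx4* had 30.3 ± 3.04 CPM in Cont, 50.4 ± 4.35 at 10 d and 58.2 ± 4.13 at 20 d, with log2 fold changes of 0.73 (SE 0.09, adjusted p = 3.22e-05) and 0.94 (adjusted p = 3.51e-07). Both rises of *Gpx4* passed with library size alone (0.39, adjusted p = 0.0061, and 0.56, adjusted p = 0.000118).

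*Trim58*, an erythroid ubiquitin ligase that binds dynein and directs its degradation in mouse erythroblasts, was highest at 10 d. *Trim58* (ENSRNOG00000026430, chromosome 10, 43022996 to 43034476, plus strand) had 6.20, 5.50, 6.45 and 6.31 CPM in Cont, 8.21, 8.44, 7.71 and 8.47 CPM at 10 d, and 6.93, 7.71, 7.15 and 6.69 CPM at 20 d. Every stored library was above every Cont library, and 10 d and 20 d overlapped narrowly at 7.71 CPM. The log2 fold change was 0.42 at 10 d (SE 0.08, 95% interval 0.25 to 0.60, adjusted p = 0.00207), 0.22 at 20 d (0.04 to 0.40, adjusted p = 0.0522) and −0.21 between 20 d and 10 d (−0.38 to −0.03, adjusted p = 0.108). Library size alone gave 0.07 (adjusted p = 0.657), −0.17 (adjusted p = 0.202, in the other direction) and −0.24 (adjusted p = 0.144). In that scaling both stored conditions overlapped Cont. Set against the counts of *Bnip3l* within a library, *Trim58* at 20 d lay below every Cont library. With TMM the value at 20 d against Cont lay close to the threshold. It passed without Cont replicate 1 (adjusted p = 0.0357), Cont replicate 3 (adjusted p = 0.0232), Cont replicate 4 (adjusted p = 0.0416) or replicate 4 of 20 d (adjusted p = 0.0449). It passed with the replicate number as a block in the fit as well (adjusted p = 0.0451).

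The subunits of dynein and dynactin, whose motor TRIM58 acts on, and other ubiquitin genes of erythroid cells were counted as lists. Of 17 tested dynein and dynactin genes, 4 rose at 10 d and 8 at 20 d, with medians of 0.10 and 0.26, and with library size alone 4 were lower at 10 d, while at 20 d 1 was higher and 5 were lower. *Dctn2*, a dynactin subunit, had 0.41 at 10 d (SE 0.07, adjusted p = 0.000881) and 0.53 at 20 d (adjusted p = 2.34e-05). *Actr1a*, which encodes the filament protein of dynactin, had 0.37 at 10 d (adjusted p = 0.00788), and *Dynlt3*, a dynein light chain, had 0.73 at 20 d (SE 0.12, adjusted p = 0.000171). *Dynlt3* passed with library size alone (0.34, adjusted p = 0.0348), and *Dctn2* (0.06 and 0.15) and *Actr1a* (0.01) did not. All 10 genes of the ubiquitin list, which also holds *Xpo7*, were tested, and 4 rose at 10 d and 3 at 20 d, with medians of 0.17 and 0.14. By library size alone 1 was higher and 3 were lower at 10 d, and 3 were lower at 20 d, with medians of −0.18 and −0.26. *Ube2o*, whose product marks ribosomal proteins for degradation in reticulocytes, rose at 10 d (0.95, SE 0.13, adjusted p = 0.000126) and fell from 10 d to 20 d (−0.71, adjusted p = 0.0015). Its rise passed with library size alone (0.57, adjusted p = 0.0267). *Rnf123*, a ubiquitin ligase, had 0.62 at 10 d (adjusted p = 0.00058) and −0.47 from 10 d to 20 d (adjusted p = 0.00495). From 10 d to 20 d *Ube2h* (0.24, adjusted p = 0.0241), a ubiquitin-conjugating enzyme, and *Xpo7* (0.31, adjusted p = 0.00276), a nuclear export receptor, rose. *Fbxo7* (0.40, adjusted p = 0.000777) and *Trim10* (0.38, adjusted p = 0.000815) rose at 20 d, with 0.01 and 0.00 by library size alone.

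*Foxo3*, which encodes a transcription factor that drives autophagy and antioxidant genes in erythroid cells, rose at 10 d and fell from 10 d to 20 d. *Foxo3* (ENSRNOG00000000299, chromosome 20, 45672995 to 45764561, minus strand) had 10.8, 11.5, 14.1 and 11.8 CPM in Cont, 17.5, 17.3, 18.0 and 13.9 CPM at 10 d, and 12.4, 13.1, 10.5 and 13.5 CPM at 20 d. All libraries of 20 d were below all of 10 d, while replicate 4 of 10 d lay within the range of Cont, and 20 d and Cont overlapped. The log2 fold change was 0.47 at 10 d (SE 0.11, 95% interval 0.25 to 0.69, adjusted p = 0.00542) and −0.43 from 10 d to 20 d (−0.65 to −0.21, adjusted p = 0.0101). In 20 d against Cont it was 0.04 (−0.18 to 0.26, adjusted p = 0.806), and the direction turned with library size alone, where *Foxo3* was lower at 20 d (−0.36, adjusted p = 0.0446). The fall from 10 d to 20 d was −0.46 with library size alone (adjusted p = 0.0328), and the rise at 10 d was 0.10 (adjusted p = 0.596).

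Among related factors and their regulators, 7 of 10 listed genes were tested, of which 1 rose and 1 fell at 10 d, and 1 rose and 4 fell at 20 d, with a median of −0.51 at 20 d. By library size alone 3 fell at 10 d and 5 at 20 d, with a median of −0.91 at 20 d. *Sgk1*, a kinase that phosphorylates FoxO factors, was lower at 10 d (−0.70, SE 0.21, adjusted p = 0.0333) and at 20 d (−1.12, adjusted p = 0.000613). *Sirt1*, which encodes a deacetylase that acts on FoxO factors, was lower at 20 d (−0.51, SE 0.16, adjusted p = 0.0197). *Akt2* rose at 10 d (0.39, SE 0.11, adjusted p = 0.0238), with 0.05 by library size alone (adjusted p = 0.697), and the falls of *Sgk1* and *Sirt1* passed with that scaling too.

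Over all 8 lists of related genes, 91 of 107 genes in the table could be tested. Like the members, the lists were chosen with earlier results of these data known. With TMM 26 rose and 5 fell at 10 d, 36 rose and 8 fell at 20 d, and 6 rose and 6 fell from 10 d to 20 d. The counts by library size alone were 7 and 17 at 10 d, 3 and 27 at 20 d, and 2 and 6 from 10 d to 20 d. Under TMM the shares higher were 28.6% at 10 d and 39.6% at 20 d, where 7.86% and 12.8% of all genes were, and the shares lower were 5.49% and 8.79%, where 5.68% and 21.1% of all genes were. By library size alone 18.7% of the listed genes were lower at 10 d and 29.7% at 20 d, where 22.7% and 34.7% of all genes were, and 7.69% and 3.30% were higher, where 1.17% and 1.18% were. From 10 d to 20 d, 6.59% of the listed genes were higher and 6.59% lower with TMM, where 3.38% and 12.6% of all genes were. By library size alone these shares were 2.20% and 6.59%, where 0.811% and 10.8% of all genes were. The counts against Cont turned with the scaling, as they did over all genes. The genes named above that rose against Cont under both scalings in at least 1 stored condition were *Tax1bp1*, *Atg4d*, *Ctsd*, *Ctsb*, *Gpx4*, *Dynlt3* and *Ube2o*, and those that fell under both were *Rab7a*, *Sgk1*, *Sirt1*, *Alox5* and *Alox5ap*.

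The change over the last 10 days of storage differed from that over the first for 3 of the 8 genes. The test was the contrast of the log2 change from 10 d to 20 d minus that from Cont to 10 d, both of which use the 10 d libraries. It was −0.90 for *Foxo3* (SE 0.18, adjusted p = 0.005), −0.70 for *Alox15* (SE 0.13, adjusted p = 0.00308) and −0.63 for *Trim58* (SE 0.14, adjusted p = 0.0124), where 5.57% of all genes had a lower and 0.429% a higher change. The contrast was −0.99 for *Ulk1* (adjusted p = 0.228). None of the 3 passed by library size alone (*Foxo3* −0.57, adjusted p = 0.169, *Alox15* −0.37, adjusted p = 0.207, and *Trim58* −0.30, adjusted p = 0.363), nor did they without globin and 7SL genes in the library size (adjusted p = 0.103, 0.167 and 0.417). Without replicate 2 of 10 d, *Trim58* was not called (−0.60, adjusted p = 0.0589).

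Ratios within a library do not depend on the scaling between libraries, so each gene was also set against *Bnip3l*. *Map1lc3b* had 4.59 ± 0.284 counts per 100 of *Bnip3l* in Cont (SD, n = 4), 4.59 ± 0.205 at 10 d and 4.78 ± 0.0521 at 20 d, so that the pair kept nearly the same proportion. *Alox15* had 53.9, 59.2, 74.7 and 69.2 counts per 100 of *Bnip3l* in Cont, 74.1, 74.0, 75.1 and 74.2 at 10 d, and 63.4, 60.2, 61.9 and 68.1 at 20 d. The libraries of 10 d lay close together and above all of 20 d, and the Cont libraries overlapped with both. *Foxo3* had 0.952 ± 0.171 in Cont, 1.01 ± 0.117 at 10 d and 0.682 ± 0.0710 at 20 d, and *Trim58* had 0.481 ± 0.0524, 0.495 ± 0.0302 and 0.392 ± 0.0224. For both, all libraries of 20 d were below all of 10 d. Those of *Trim58* at 20 d (0.367 to 0.413) were also below all of Cont (0.420 to 0.527), while *Foxo3* at 20 d overlapped Cont. *Ulk1* had 0.0633 ± 0.0195 in Cont, 0.0455 ± 0.0146 at 10 d and 0.0196 ± 0.00280 at 20 d, with all of 20 d below the rest. *Gabarapl2* had 31.3 ± 5.86, 26.5 ± 3.22 and 25.1 ± 3.66, and *Fundc1* had 0.133 ± 0.0128, 0.142 ± 0.0141 and 0.165 ± 0.0464, with overlap between all conditions. Replicate 1 had the lowest ratio of *Gabarapl2*, *Ulk1* and *Trim58* in each condition. A ratio shows unequal change of a pair of genes, and not which of them changed.

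**Figure D4:**
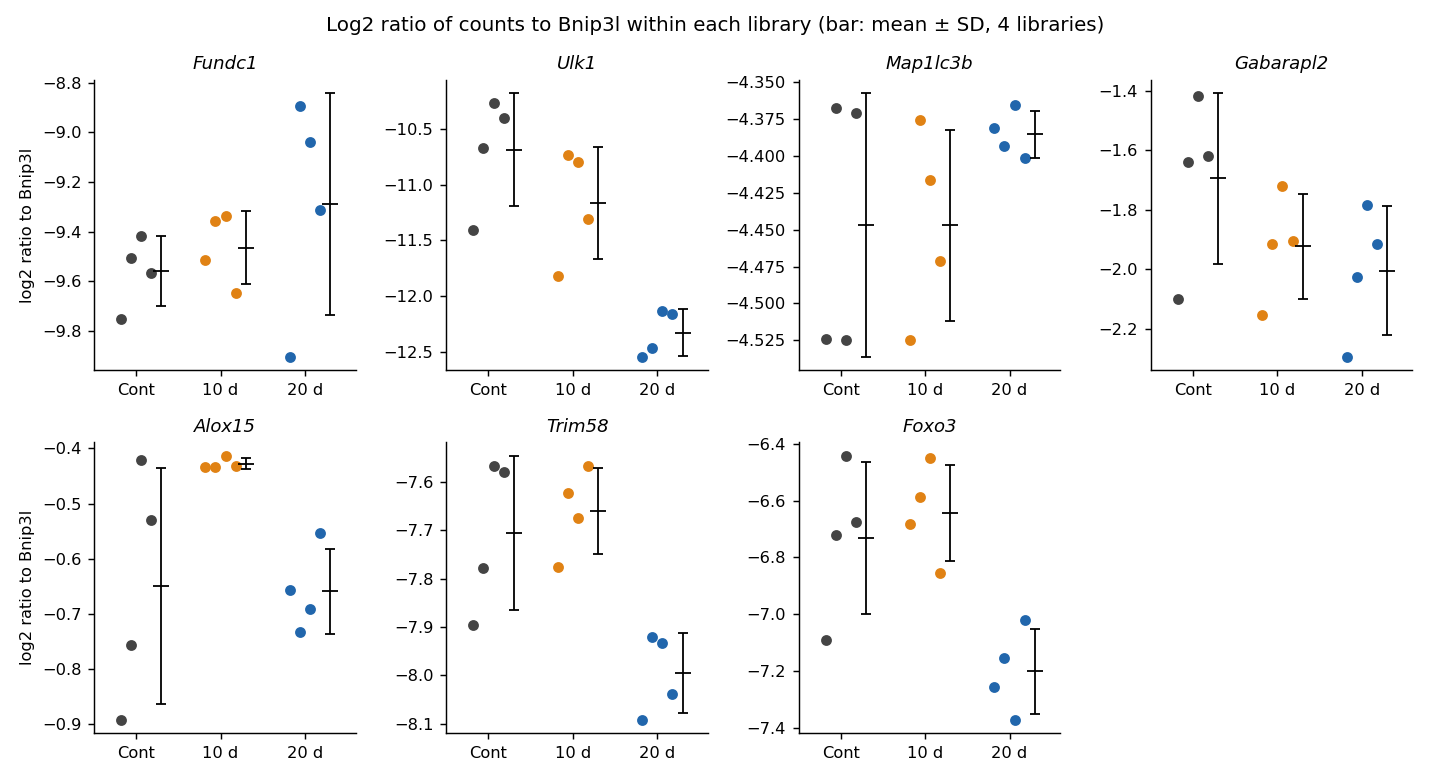
Log2 ratio of the counts of 7 genes to those of *Bnip3l* within each library (points, 4 per storage condition), with the mean and SD as bars, on an axis of its own for each gene. *Ulk1* of 20 d lies below all other libraries, *Foxo3*, *Trim58* and *Alox15* of 20 d lie below all of 10 d, and *Map1lc3b* stays between −4.52 and −4.37. *Trim58* of 20 d also lies below all of Cont.

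The genes whose log2 CPM followed each member most closely over the 12 libraries differed between members. The correlations are across libraries that share their TMM factors and fall into 3 conditions, over 7676 genes with a symbol, and are given as a description. *Bnip3l* and *Map1lc3b* both had *Sirt2*, which encodes a deacetylase, as the nearest gene (Pearson r = 0.987 for each), and their own correlation was 0.968. *Bnip3l* was followed next by *Marchf2* (r = 0.987) and *Cox6a1* (r = 0.986), and *Map1lc3b* by *Gpx4* (r = 0.979) and *Atp5if1* (r = 0.977). *Ulk1* was nearest to *Syk* (r = 0.967), which encodes a kinase of immune receptors, *Zfp36* (r = 0.958) and *Sh3bp2* (r = 0.958). The correlation of *Ulk1* with *Bnip3l* was −0.743. *Alox15* was nearest to *Nbr1* (r = 0.966), which encodes a cargo receptor of autophagy, *Stom* (r = 0.962), which encodes a red cell membrane protein, and *Rsad2* (r = 0.962). *Foxo3* was nearest to *Ap3d1* (r = 0.938), *Kmt5a* (r = 0.934) and *Slc4a1* (r = 0.918), which encodes the anion exchanger band 3. *Trim58* was nearest to *Tspyl1_1* (r = 0.928), *Riok3* (r = 0.918) and *Dennd5a* (r = 0.918). *Fundc1* was nearest to *Klhdc10* (r = 0.927), *Acp1* (r = 0.927) and *Trim59* (r = 0.925), and *Gabarapl2* to *Rsu1* (r = 0.950), *Chac2* (r = 0.950) and *Nuak1* (r = 0.939).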

How the data were processed

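Total RNA of purified RBCs was made into rRNA-depleted libraries with a kit that does not mark strand, and the authors mapped the reads to the rat genome mRatBN7.2 in CLC Genomics Workbench. The deposited table holds raw read counts per gene, from which all tests were made, and whether a read or a read pair was counted is not stated. The deposited TPM values were used for levels, and the deposited RPKM values only to check the order of levels. The authors' comparison columns (fold changes and p-values) were not used, nor were 12 columns of CPM. Per the labels, 12 libraries fall into 3 conditions.

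Counts were fitted in R 4.3.3 with edgeR 4.0.16 (filterByExpr, TMM, quasi-likelihood F-test, Benjamini-Hochberg over 8382 genes), with all conditions in 1 fit. DESeq2 1.42.0, other scalings, no filter, a likelihood ratio test, fits of 2 conditions, the replicate number as a block and leaving out each library were alternatives. A prior count of 2 was added for log2 CPM. The fit was tested on simulated data. The members, the gene lists and the motifs were chosen with earlier results of these data known. Of the 8 genes all are named. Of each list, the 2 genes with the smallest adjusted p in 10 d and in 20 d against Cont are named if called, and *Map1lc3a*, *Gabarap*, *Gabarapl1*, *Bnip3* and *Gpx4* whatever their result. For each member the 3 genes of highest correlation are named. *Ulk2*, *Alox5*, and from 10 d to 20 d *Ctsb*, *Ube2o*, *Rnf123*, *Ube2h* and *Xpo7* were named after their values were seen. Promoters come from RefSeq (GRCr8). Figures were drawn with matplotlib 3.10.9 in Python 3.11.15.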

Additional observations from a re-analysis of the deposited data

Results flagged for a closer look

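In 1 of the 24 groups of 4 libraries examined (8 genes in 3 conditions), a library lay far from the others. *Bnip3l* had 1475 CPM in Cont replicate 1, against 1207 to 1225 CPM in the other Cont libraries. This library also had the lowest TMM factor of Cont (1.03 against 1.20 to 1.30), and in TPM its value of 549 lay within the range of its group. Without it the rise of *Bnip3l* was 0.44 in 10 d and 0.61 in 20 d on the log2 scale. Chance alone would mark about 1 in 20 groups.

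The change from 10 d to 20 d differed from that from Cont to 10 d for *Alox15* (−0.6996 on the log2 scale), *Foxo3* (−0.8988) and *Trim58* (−0.6296). Both changes share the 10 d libraries. With TMM 5.57% of all genes had a lower change. By library size alone none of these genes passed the same test (adjusted p = 0.207 for *Alox15*, 0.169 for *Foxo3* and 0.363 for *Trim58*).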

How the results depend on the processing

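Of the choices tried, the scaling of the libraries moved the results most. With TMM 5 members were higher at 10 d and 4 at 20 d against Cont. With library size alone these counts were 0 and 1, with 2 lower at 20 d and 0 called among the 3 conditions. When globin and 7SL genes were left out of the library size, 1 member was higher at 10 d, 2 from 10 d to 20 d, and 0 were called among the 3 conditions. At 20 d against Cont that setting kept the rises of *Alox15* (0.29, adjusted p = 0.00461), *Bnip3l* (0.30, adjusted p = 0.00611), *Fundc1* (0.62, adjusted p = 0.00903) and *Map1lc3b* (0.36, adjusted p = 0.00251). With DESeq2 size factors 5 members were higher at 10 d and 4 at 20 d against Cont. The count of members higher from 10 d to 20 d was 1 with DESeq2, with DESeq2 size factors, without the filter on low counts, with only the 2 conditions compared and with the replicate block, against 0. Without the filter 5 members were called among the 3 conditions, against 2. Shares of all genes called were counted for TMM and for library size alone only. The likelihood ratio test moved 0 of the 32 member values across the threshold or in direction.

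Directions turned mostly with the scaling. With library size alone *Trim58* had −0.1702 and *Foxo3* −0.3597 at 20 d against Cont, and *Gabarapl2* had −0.2178 at 10 d and −0.1977 at 20 d. Without globin and 7SL genes in the library size, *Gabarapl2* had −0.1674 and −0.0099, *Foxo3* had −0.1679 at 20 d, and *Alox15* had 0.0036 from 10 d to 20 d. The change per interval, the change from 10 d to 20 d minus that from Cont to 10 d, turned for *Bnip3l* to 0.0711 and 0.1722, for *Fundc1* to 0.1955 and 0.2810, for *Map1lc3b* to 0.1305 and 0.2338 and for *Gabarapl2* to 0.2380 and 0.3250 under these 2 scalings, and for *Gabarapl2* to 0.0091 with DESeq2 and with DESeq2 size factors. None of these changes per interval passed the test.

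When each library was left out in turn, the fall of *Ulk1* at 20 d, the fall of *Foxo3* from 10 d to 20 d and the rises of *Alox15*, *Bnip3l* and *Map1lc3b* at both times stayed past the threshold. The members higher from 10 d to 20 d numbered 0 to 1 and those called among the 3 conditions 0 to 2, with 0 without Cont replicate 2 or Cont replicate 4. The log2 fold change of *Ulk1* at 10 d ranged from −0.2411 to 0.0714, and that of *Gabarapl2* from 10 d to 20 d from −0.0001 to 0.1292. The change per interval ranged from −0.2934 to 0.0213 for *Fundc1* and from −0.1680 to 0.0186 for *Gabarapl2*.

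The replicate numbers were not taken as pairs. Deviations of same-numbered libraries from their condition had correlations of 0.0167 to 0.214, of which 5 of 12 were over 0.1, against −0.186 to 0.0906 between other numbers, and 9 of 12 libraries correlated best with one of their own number. With the replicate block 7 members were higher at 10 d and 6 at 20 d, and 1 from 10 d to 20 d. For this fit the share of all genes called was not counted. The calls that came in with the block were *Gabarapl2* at 10 d (0.15, adjusted p = 0.0426) and 20 d (0.20, adjusted p = 0.00363), *Fundc1* at 10 d (0.48, adjusted p = 0.0244), *Trim58* at 20 d (0.22, adjusted p = 0.0451) and *Map1lc3b* from 10 d to 20 d (0.19, adjusted p = 0.0155), and no member's call was lost. *Ulk1*, at 21 to 27 counts per library at 20 d, is the member that depth limits most.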
